A study of Mus musculus with 16 samples.

Results

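The histone deacetylases of class I and class II are a family of 10 genes, Hdac1 to Hdac10, which were followed here in the cochlea of mice that had received a histone deacetylase inhibitor. Every probe of the expression array whose only gene symbol is one of these was taken, which gave 17 probes for the 10 genes, of 45101 probes and 18194 named genes on the array. The rule itself uses symbols and no measured value, although earlier results of these data were known when the family was picked. The mice were male and of the strain DBA/2J, and RNA of the whole left cochlea, 1 cochlea per array, was measured in 3 groups. In the M+V group, 6 mice aged 12 weeks had been given daily subcutaneous L-methionine (MET, 500 mg/kg) together with valproic acid (VPA, 300 mg/kg) for 8 weeks. In the control group, 5 mice aged 12 weeks had been given the vehicle, a sodium bicarbonate solution, for the same 8 weeks. The 4-week group held 5 mice aged 4 weeks, taken before any injection. All mice of this strain carry the Cdh23 and Fscn2 alleles that are linked to its progressive hearing loss, so no group had normal hearing alleles. MET and VPA were given together in the mice measured, so neither compound can be told apart from the other.

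Histone deacetylases remove acetyl groups from lysines of histones and other proteins, and in most settings this goes with tighter chromatin and lower transcription. Class I enzymes (Hdac1, Hdac2, Hdac3 and Hdac8) are mainly nuclear, and the first 3 work inside corepressor complexes such as Sin3, NuRD, CoREST and NCoR/SMRT. Class IIa enzymes (Hdac4, Hdac5, Hdac7 and Hdac9) shuttle between nucleus and cytoplasm under the control of kinases and bind Mef2 transcription factors, whereas class IIb holds Hdac6, the cytoplasmic tubulin deacetylase, and Hdac10, a polyamine deacetylase. VPA inhibits the activity of class I and, less strongly, class IIa enzymes, and MET feeds the methyl donor pool. An array measures transcript levels and not enzyme activity or histone acetylation. The comparison of M+V with control therefore asked whether cochleae after treatment differed in the transcripts of the enzymes that VPA acts on, and the comparisons with 4 weeks asked the same of age together with injections.

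Hdac2 and Hdac9 gave the results described most closely below, and their start regions differ in the CG dinucleotides at which DNA is methylated. The stretches from 250 bases before to 50 bases after the annotated starts are shown with each CG in capitals. They are RefSeq sequences of build GRCm38.p6, which is the C57BL/6J reference and not DBA/2J. The Hdac9 starts are numbered by chromosome position and not by order along the gene. As Hdac9 lies on the minus strand, the start listed last is the upstream one, and the other lies within the gene.
Hdac2, chr10:36974294-36974593, plus strand: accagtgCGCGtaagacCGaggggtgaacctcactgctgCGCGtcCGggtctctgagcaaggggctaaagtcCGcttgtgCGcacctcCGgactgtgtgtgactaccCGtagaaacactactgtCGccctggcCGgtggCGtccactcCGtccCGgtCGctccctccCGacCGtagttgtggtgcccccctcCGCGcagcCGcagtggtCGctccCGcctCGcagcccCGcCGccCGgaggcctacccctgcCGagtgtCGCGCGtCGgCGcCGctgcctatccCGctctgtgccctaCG
Hdac9, first start, chr12:34528840-34529139, minus strand: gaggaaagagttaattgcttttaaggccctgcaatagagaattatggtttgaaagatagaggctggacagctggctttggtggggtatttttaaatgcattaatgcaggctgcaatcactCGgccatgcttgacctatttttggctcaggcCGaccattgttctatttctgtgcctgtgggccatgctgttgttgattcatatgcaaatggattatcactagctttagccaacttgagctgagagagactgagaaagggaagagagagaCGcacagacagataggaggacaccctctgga
Hdac9, second start, chr12:34917046-34917345, minus strand: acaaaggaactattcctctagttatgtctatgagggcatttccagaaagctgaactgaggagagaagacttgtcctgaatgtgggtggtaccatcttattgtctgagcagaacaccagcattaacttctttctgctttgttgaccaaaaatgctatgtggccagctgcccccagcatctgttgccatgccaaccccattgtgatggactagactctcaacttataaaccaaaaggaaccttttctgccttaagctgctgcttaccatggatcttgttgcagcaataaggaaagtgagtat
The Hdac2 stretch holds 36 CG dinucleotides, a number that 6.23% of the 32851 mouse promoters of the same length reach. The Hdac9 stretches hold 3 and 0, which 76.69% and 100% of promoters reach. In all, 11 such stretches were counted for 7 of the genes (Hdac2 and Hdac4 to Hdac9), with 0 to 36 CG dinucleotides and 6 of them above the median of 7 over all promoters. The letters GGGCGG, the core of the box bound by Sp1, were found on one or the other strand in 5 of the 11 and in 35.66% of all promoters. Such a match is a feature of the letters only. The genes themselves range from Hdac10 on chromosome 15, 5398 bases long, to Hdac9 on chromosome 12, which spans 869516 bases.

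The values are log2 signals that had been brought to the same distribution in all 16 arrays, with a median of 6.90 in each. Tests covered the 21391 probes that reached that median in all arrays of 1 or more groups, 11 of them from 9 of the family's genes. The tested probes were 1 each of Hdac1, Hdac3, Hdac5, Hdac6, Hdac7, Hdac9 and Hdac10 and 2 each of Hdac2 and Hdac4. Of these, only the Hdac10 probe fell under the median in any array, in 1 of the 5 at 4 weeks. The remaining 6 probes stayed under the filter. They include the single probe of Hdac8, so Hdac8 has levels here but no adjusted test. Levels of different probes depend on each probe's own affinity and are not set against each other.

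Some arrays stood apart in ways that touch these comparisons. The bacterial BioB transcript added as a hybridisation control was high (8.91 to 9.62) in 8 arrays, which were M+V replicates 1 and 2, control replicate 1 and all 5 of 4 weeks, and low (5.73 to 6.08) in the other 8. M+V replicate 1 had a summed signal of 476.52 over the erythroid markers, against 14607 to 23504 in control and 13565 to 22199 at 4 weeks, and it also had the lowest B cell markers. Bone markers summed to 22512 to 30995 in M+V, to 22136 to 34529 in control and to 48622 to 58272 at 4 weeks. Between 10 and 11 of the 14 cochlear marker genes with a probe were at or above the median in all arrays of a group. In whole tissue, fewer cells of a type and less RNA per cell cannot be told apart. The labels do not name litters or batches, so the p-values measure the spread between these cochleae.

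**Figure D1:**
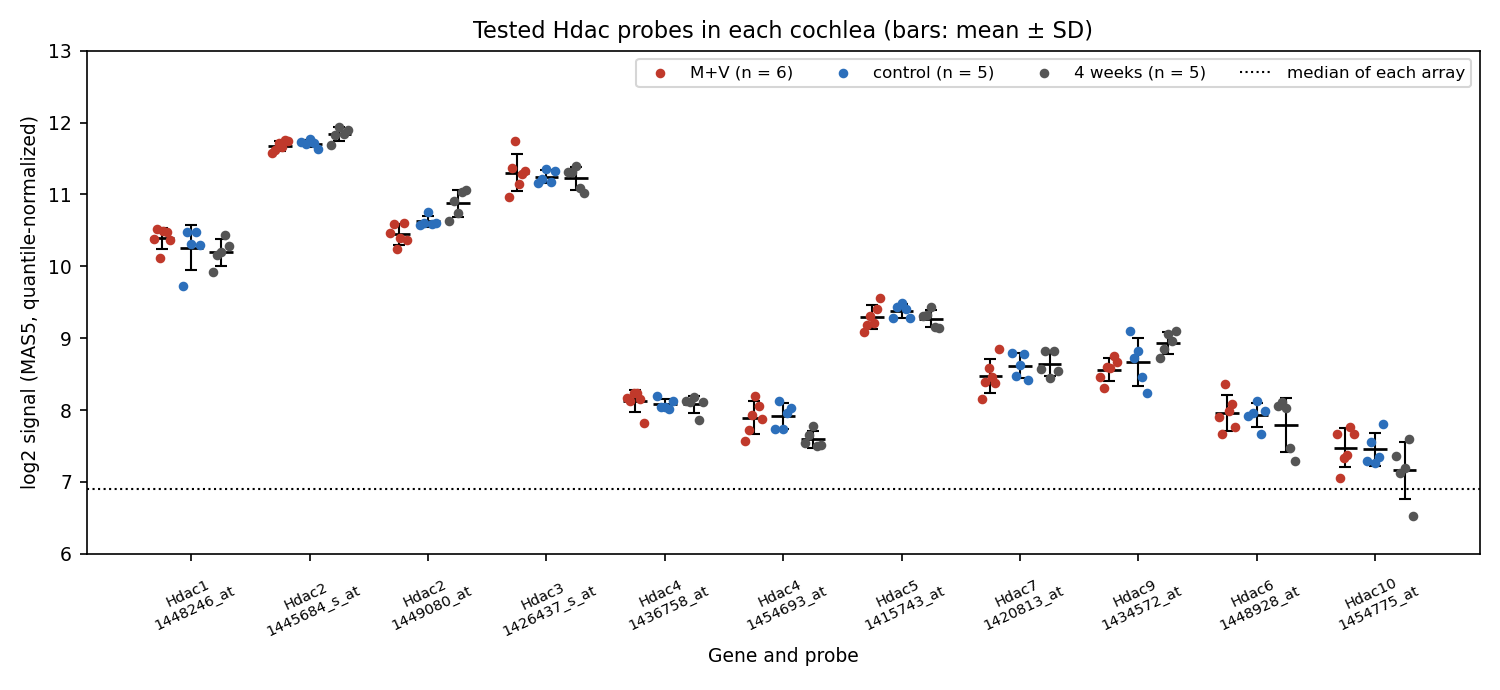
Log2 signal of the 11 tested Hdac probes in each cochlea, with M+V (n = 6), control (n = 5) and 4 weeks (n = 5) side by side and bars for the mean ± SD; the dotted line is the median of each array, 6.90. The groups overlap for every probe except Hdac2 1449080_at, where all 6 M+V cochleae lie under all 5 cochleae of 4 weeks.

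Between M+V and control, none of the 11 tested probes passed the test (limma, Benjamini-Hochberg adjustment over 21391 probes, threshold 0.05). Over all probes this comparison had 0 calls (0%), with a lowest adjusted p of 0.327, and the methods' t-test also gave 0 after adjustment, so a lack of calls is no property of the family. At an unadjusted p under 0.05 limma found 0 of the 11, beside 9.8% of all tested probes, and the methods' t-test found 1, Hdac2 1449080_at, beside 7.32% of all in that test. At a fold over 1.5 with an unadjusted p under 0.05, the study's cutoffs, 0 of the 11 passed, beside 1.54% of all. Groups without overlap were seen for 0 of the 11, beside 1.1% of all. The log2 fold changes of the family ran from -0.18 to 0.13 with a median of -0.02, and their median size was 0.06, against 0.11 over all tested probes. The interval bound farthest from 0 was 0.41, for Hdac1, which is a fold of 1.33. Changes above that fold lay outside the intervals of all 11 probes. Some intervals were narrower, such as -0.18 to 0.12 for Hdac2 1445684_s_at, and every one of them held 0.

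Among the class I genes, Hdac1, a core subunit of the Sin3, NuRD and CoREST complexes, had log2 signals of 10.12 to 10.52 (median 10.43) in M+V, against 9.73, 10.48, 10.32, 10.48 and 10.30 in control. Control replicate 1 lay under every other array of either group, and the other 4 control cochleae fell inside the M+V range. The log2 fold change was 0.13 (SE 0.13, adjusted p = 0.766, limma), and without control replicate 1 it was -0.003.
Hdac3, the catalytic subunit of the NCoR/SMRT complexes, averaged 11.31 ± 0.26 in M+V (SD, n = 6) and 11.24 ± 0.09 in control (SD, n = 5), a log2 difference of 0.06 with a 95% interval of -0.19 to 0.31. The M+V cochleae held both the lowest and the highest value, 10.96 and 11.74.
Hdac8, a class I enzyme that works outside these complexes and deacetylates cohesin, averaged 6.34 ± 0.37 in M+V (SD, n = 6) and 6.13 ± 0.28 in control (SD, n = 5). Its single probe was under the array median in all 16 cochleae, and the untested difference of 0.21 had a 95% interval of -0.24 to 0.65.

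Hdac2, the close paralog of Hdac1 in the same complexes, has 3 probes, and they were not alike. For 1449080_at the M+V cochleae had 10.24 to 10.61 (median 10.43), against 10.57, 10.60, 10.76, 10.60 and 10.60 in control. The lowest 4 of the 6 M+V cochleae lay under all control cochleae, the other 2 within their range. The log2 fold change was -0.18 (SE 0.09, 95% interval -0.38 to 0.02, adjusted p = 0.546, limma). It kept its sign in all 34 alternative settings and passed in 0 of them. Among the 8 low spike-in arrays the difference was -0.24, with an adjusted p of 0.672 by limma.
The brighter probe 1445684_s_at differed far less, with 11.58 to 11.75 (median 11.69) in M+V and 11.74, 11.70, 11.77, 11.71 and 11.63 in control. Its log2 fold change was -0.03, with a 95% interval of -0.18 to 0.12. The third probe, 1439704_at, was under the median in all arrays and differed by -0.01, untested.

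The class IIa genes showed equally small differences. Hdac4, a neuronal and chondrocyte regulator of Mef2, had log2 fold changes of 0.04 and -0.02 with its tested probes. Hdac5, a signal-responsive repressor of Mef2 targets, averaged 9.29 ± 0.17 in M+V (SD, n = 6) and 9.38 ± 0.09 in control (SD, n = 5), a difference of -0.08 with a 95% interval of -0.28 to 0.11. Hdac7, known for its part in blood vessel integrity, differed by -0.15 (95% interval -0.40 to 0.11). Of its 6 M+V cochleae 3 lay under and 1 above all control cochleae. Hdac9, of which a truncated form lacking the catalytic domain is known, differed by -0.10 (95% interval -0.39 to 0.18), and every M+V cochlea lay within the control range.
Of the class IIb genes, Hdac6 averaged 7.96 ± 0.25 in M+V (SD, n = 6) and 7.93 ± 0.17 in control (SD, n = 5), and the difference was 0.03 (95% interval -0.31 to 0.36). Hdac10 averaged 7.48 ± 0.27 in M+V (SD, n = 6) and 7.45 ± 0.23 in control (SD, n = 5), and the difference was 0.02 (95% interval -0.34 to 0.39). Neuron and brain glia markers were lower in M+V by medians of -0.43 and -0.31 on the log2 scale, with 0 of 10 and 0 of 7 tested genes past the test. Erythroid and B cell markers were lower by more, with medians of -1.02 and -0.68, and 0 of 5 and 0 of 7 passed. The M+V cochleae were not alike in this. Replicate 1 had means of 5.09 (erythroid) and 7.37 (B cell), against 9.24 to 10.11 and 8.79 to 9.71 in the other M+V cochleae. Neuron markers averaged 10.40 and 9.96 in M+V replicates 1 and 2, against 10.72 to 11.59 in the others and 10.87 to 11.62 in control. The part of these cells in the values of the family was not tested, beyond a fit with the glia markers as a covariate. That fit also called 0 of the 11 probes. Of the dim probes not yet given, Hdac4 1447566_at differed by -0.11 between M+V and control, Hdac7 1420812_at by -0.19, Hdac9 1421306_a_at by 0.35 (95% interval -1.32 to 2.02) and Hdac10 1441832_at by 0.76, all untested. The Hdac10 probe ran from 0.00 to 4.32 in M+V and from 0.00 to 4.50 in control, and some of its signals were at the floor.

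**Figure D2:**
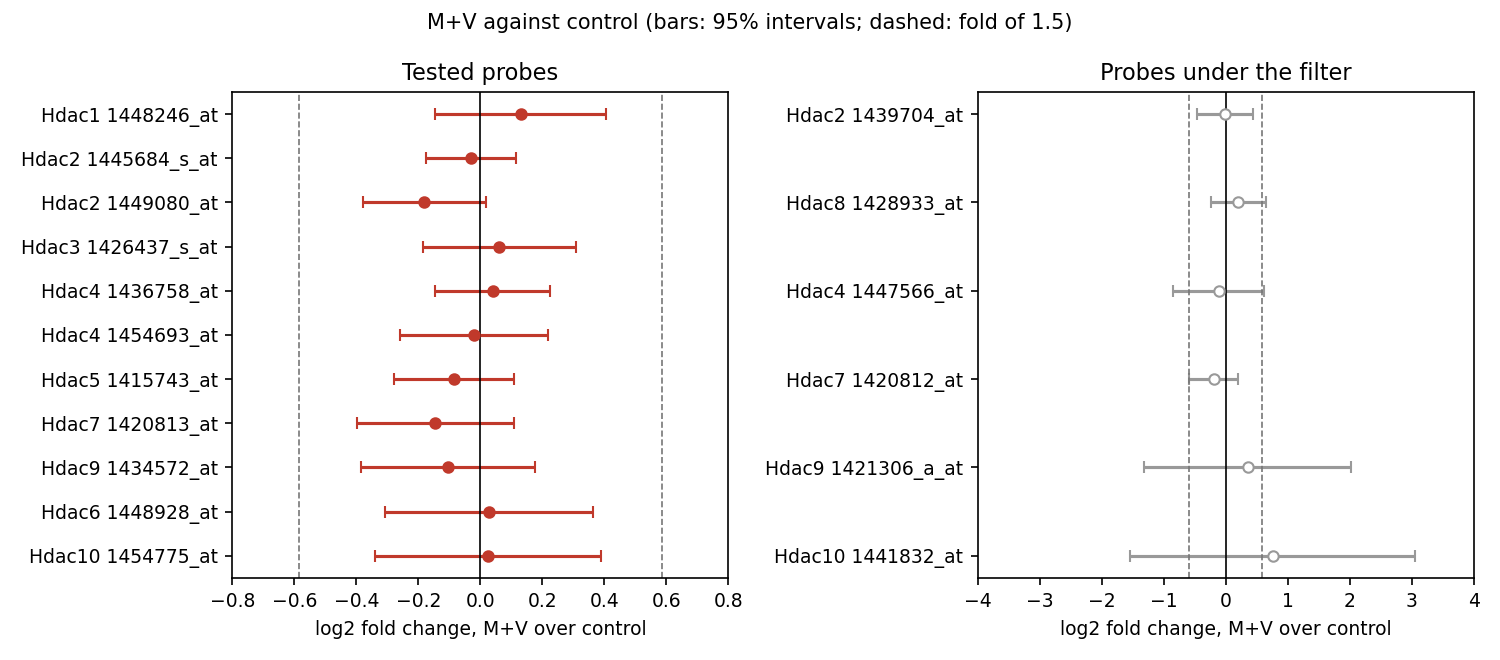
Log2 fold change of M+V over control for the 11 tested probes (left) and the 6 probes under the filter (right, on a wider axis), with 95% intervals; dashed lines mark a fold of 1.5. All intervals of tested probes hold 0 and lie within the dashed lines, and the widest intervals belong to the dim Hdac9 and Hdac10 probes on the right.

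Against the cochleae of 4 weeks, the family's only probe past the test in M+V was Hdac2 1449080_at, beside 5.28% of all tested probes. The brighter Hdac2 probe did not pass. Probe 1449080_at had 10.24 to 10.61 (median 10.43) in M+V, against 10.64, 10.91, 10.74, 11.03 and 11.06 at 4 weeks. All 6 M+V cochleae lay under all 5 of 4 weeks, the nearest arrays being at 10.61 in M+V and 10.64 at 4 weeks. Groups without overlap were seen for 4.74% of all tested probes. The log2 fold change was -0.43 (SE 0.09, 95% interval -0.63 to -0.23, adjusted p = 0.015, limma), so the signal fell by 25.9%. The vehicle controls, which share the same 4-week arrays, had a log2 fold change of -0.25 with this probe (SE 0.10, adjusted p = 0.254, limma), and 4 of the 5 lay under all cochleae of 4 weeks. As given above, M+V and control did not pass the test of the difference between them.

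The call for Hdac2 depended on the setting. It remained with each of the 16 arrays left out in turn, with adjusted p-values up to 0.0466 (limma), and without M+V replicates 1 and 2 together the change was -0.48. Within the arrays of the high spike-in level M+V replicates 1 and 2 had 10.47 and 10.59, both still under the lowest cochlea of 4 weeks, and the change was -0.35 with an adjusted p of 0.192 (limma). With the spike-in level as a block it was -0.40 (adjusted p = 0.0544, limma). Bone markers moved alongside, with 5 of 7 tested genes lower in M+V than at 4 weeks (median -0.99) and 4 of 7 lower in control (median -0.81). With their mean as a covariate the change was -0.36 (SE 0.21, against 0.09 without it) and no longer passed (adjusted p = 0.563, limma). Bone markers at 4 weeks did not overlap those of M+V or control. Fits with this covariate, here and below, can therefore hardly separate these markers from the group difference. Neutrophil markers were higher for 4 of 9 genes in M+V (median 0.61) and 2 of 9 in control (median 0.46). With them as a covariate the change was -0.47 (SE 0.16, adjusted p = 0.19, limma). Their mean at 4 weeks (12.927 to 13.507) lay under every control array (13.585 to 13.889). It overlapped M+V only through M+V replicate 3 (13.458). Fits with neutrophil markers, here and below, can therefore also hardly separate these markers from the group difference.

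The other Hdac2 probes did not share the size of this fall. With 1445684_s_at, M+V had 11.58 to 11.75 (median 11.69) and 4 weeks had 11.68, 11.82, 11.94, 11.84 and 11.90. Only 4 weeks replicate 1 reached into the M+V range. The change was -0.16 (SE 0.07, 95% interval -0.30 to -0.01, adjusted p = 0.186, limma), and the control group's was -0.13 (adjusted p = 0.454, limma). With bone markers as a covariate the estimates were 0.03 in M+V (SE 0.14) and 0.04 in control (SE 0.13). The dim probe 1439704_at ran the other way, with untested differences of 0.28 in M+V and 0.29 in control and overlapping groups. Averaged over its tested probes, Hdac2 fell by 0.30 in M+V against 4 weeks (adjusted p = 0.0202, limma). Around the group means, the tested Hdac2 probes correlated by only r = 0.24 over the 16 arrays (Spearman's rho = 0.11, permutation p = 0.481 and 0.719).

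**Figure D3:**
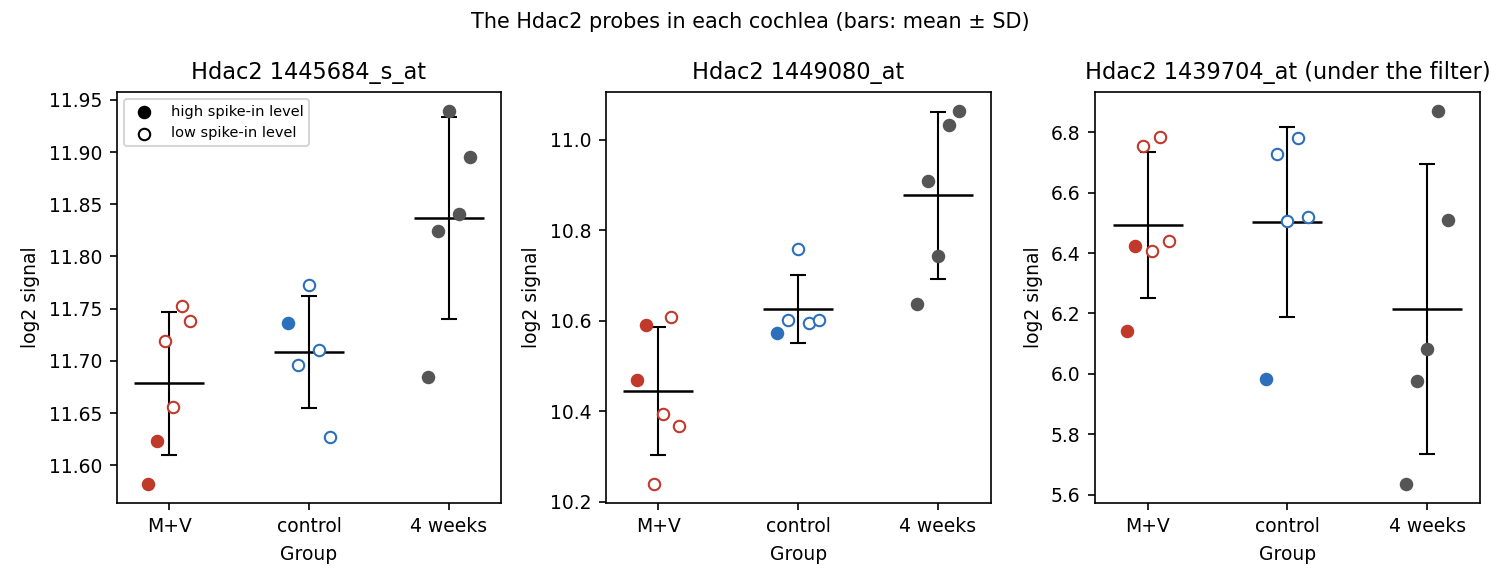
Log2 signal of the 3 Hdac2 probes in each cochlea, by group, with bars for the mean ± SD; filled points are arrays of the high spike-in level and open points those of the low one. Both probes above the filter have their highest mean at 4 weeks, and with 1449080_at the M+V and 4-week cochleae do not overlap. With 1439704_at the 4-week cochleae hold both the lowest value (5.63) and the highest (6.87), and the groups overlap.

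Over the family, 1 of the 11 tested probes passed for M+V against 4 weeks, beside 5.28% of all tested probes, and 4 of 11 had an unadjusted p under 0.05, beside 22.2% of all. The 4 were both Hdac2 probes, Hdac9 and Hdac4 1454693_at. The study's cutoffs took 0 of the 11, beside 4.39% of all, and the only pair of groups without overlap was that of Hdac2, beside 4.74% of all. For control against 4 weeks 0 of the 11 passed, beside 1.38% of all, and 2 had an unadjusted p under 0.05 (Hdac2 1449080_at and Hdac4 1454693_at), beside 13.8% of all. There the study's cutoffs took 0 (2.43% of all), and 0 had groups without overlap (5.61% of all). The median size of the change was 0.17 for the family and 0.15 for all tested probes in M+V against 4 weeks, and 0.13 for both in control against 4 weeks. With 11 probes these shares are too coarse to be set apart from those of all probes.

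Hdac9 was the main probe with the largest differences over the 3 groups (moderated F of 4.13, adjusted p = 0.219, limma). Its probe 1434572_at had 8.31 to 8.76 (median 8.59) in M+V, against 8.72, 8.85, 9.05, 8.96 and 9.10 at 4 weeks. Here 5 of the 6 M+V cochleae lay under all cochleae of 4 weeks. The change was -0.38 (SE 0.13, adjusted p = 0.108, limma). The control cochleae spread more widely, with 9.10, 8.73, 8.82, 8.46 and 8.24, and their change was -0.27 (SE 0.14, adjusted p = 0.406, limma). Control replicate 1, at 9.10, lay beside the highest cochlea of 4 weeks. Within the arrays of the high spike-in level the M+V change was -0.56 (adjusted p = 0.0577, limma). With bone markers as a covariate the estimates were above 0, at 0.25 in M+V (SE 0.25) and 0.26 in control (SE 0.22). With neutrophil markers the changes were -0.12 in M+V (SE 0.22) and -0.07 in control (SE 0.19).
The second Hdac9 probe, 1421306_a_at, was dim in every array. It had 0.74 to 4.89 (median 1.34) in M+V, 1.37, 1.69, 2.74, 1.21 and 1.64 in control, and 5.28, 1.504, 4.50, 4.68 and 4.78 at 4 weeks. The 4-week cochleae other than replicate 2 lay above all controls and above 5 of the 6 M+V cochleae. The untested differences were -2.07 for M+V and -2.42 for control, and they shrank to -0.47 and -0.61 once 32 was added to each signal before taking the log, since these signals are only a few units.

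The probes of Hdac4 split. Its probe 1454693_at had 7.57 to 8.20 (median 7.91) in M+V and 7.74, 8.13, 7.73, 7.96 and 8.03 in control, against 7.54, 7.66, 7.77, 7.50 and 7.51 at 4 weeks. The log2 differences of 0.30 in M+V (SE 0.11, adjusted p = 0.131, limma) and 0.32 in control (SE 0.12, adjusted p = 0.223, limma) missed the threshold. Without M+V replicate 1 the M+V difference was 0.36 and passed (adjusted p = 0.0484, limma). The probe also followed the spike-in level: the 8 arrays of the high level had 7.50 to 7.77 and those of the low level 7.73 to 8.20. With that level as a block the M+V difference was 0.09 (adjusted p = 0.667, limma). With bone markers as a covariate the differences were 0.65 in M+V and 0.62 in control, and with neutrophil markers 0.16 and 0.21, and none passed. The other tested Hdac4 probe, 1436758_at, differed by 0.05 in M+V and 0.01 in control, so the probes of this gene did not move together, and their correlation around the group means was r = 0.16 (Spearman's rho = 0.11, permutation p = 0.629 and 0.702).

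The remaining members did not pass the test against 4 weeks. Hdac1 differed by 0.19 in M+V and 0.06 in control, Hdac3 by 0.08 and 0.02, Hdac5 by 0.02 and 0.10, Hdac7 by -0.17 and -0.03 and Hdac6 by 0.17 and 0.14, all on the log2 scale with adjusted p-values from 0.407 (limma). Hdac10 was a little further off, with 7.05 to 7.76 (median 7.52) in M+V and 7.29, 7.56, 7.27, 7.35 and 7.81 in control, against 7.36, 7.13, 7.19, 7.60 and 6.53 at 4 weeks. Its differences were 0.31 in M+V (adjusted p = 0.298, limma) and 0.29 in control (adjusted p = 0.508, limma), and 4 weeks replicate 5 was the low array. Hdac8 had untested differences of 0.32 in M+V and 0.11 in control. The dim second probe of Hdac7 differed by -0.06 in M+V and 0.14 in control, the dim probe of Hdac4 by -0.28 and -0.17 and the dim second probe of Hdac10 by -0.47 and -1.23, all untested and with overlapping groups.

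**Figure D4:**
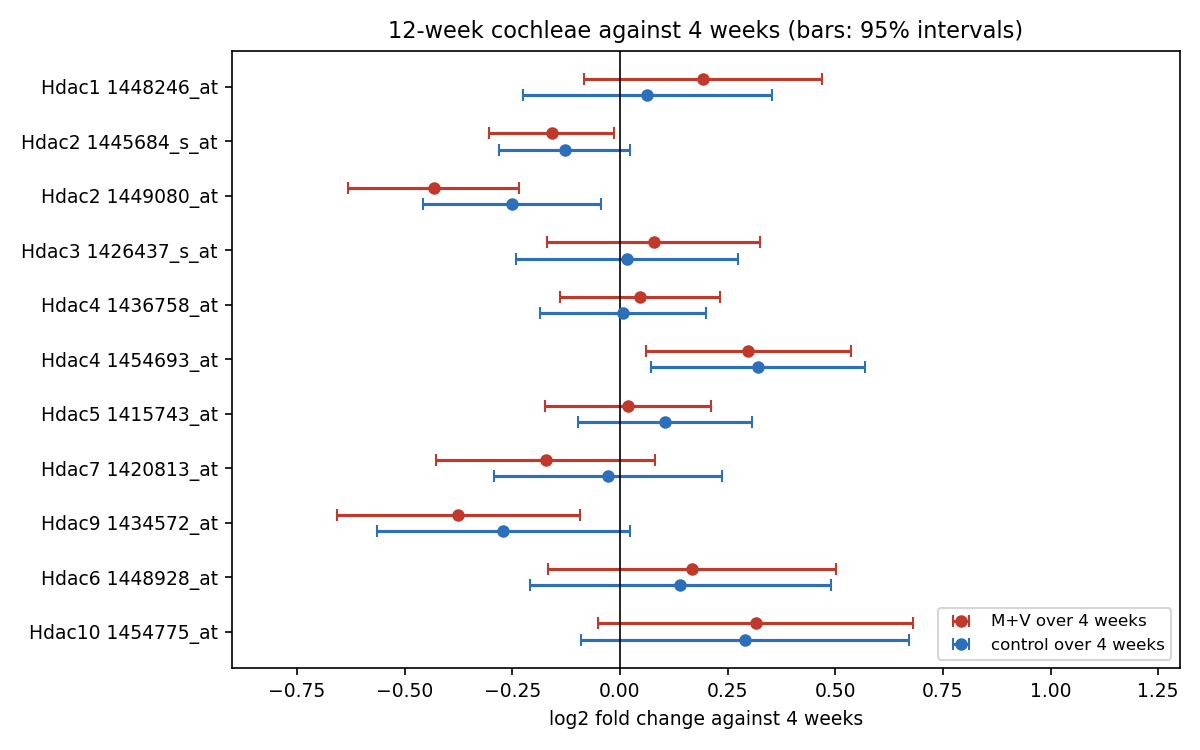
Log2 fold changes of M+V (red) and control (blue) over 4 weeks for the 11 tested probes, with 95% intervals; both use the same 4-week arrays. Of the M+V changes that of Hdac2 1449080_at (-0.43) lies furthest below 0, and it is the only change of either group past the adjusted threshold.

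Cochleae of the same group were then compared for members that varied together, using each gene's main probe (its brightest tested one) and the difference of each array from its group mean. Of 36 pairs of genes 1 passed the adjustment over the pairs. Hdac2 1445684_s_at and Hdac9 1434572_at had r = 0.72 over the 16 arrays (permutation p = 0.00027, adjusted p = 0.00972) and Spearman's rho = 0.82 (permutation p = 0.00016, adjusted p = 0.00576). This result is for the main Hdac2 probe only. The other tested Hdac2 probe, 1449080_at, was not paired with Hdac9, and its correlation with the main probe was r = 0.24. Leaving out the 2 arrays farthest from the median of Hdac2 gave r = 0.74. Within the arrays of the high spike-in level r was 0.82 (n = 7, as control replicate 1 is the only array of its group there) and within those of the low level 0.80 (n = 8). The other 35 pairs had adjusted p-values from 0.238 by Pearson's r, the lowest being that of Hdac3 with Hdac6 (r = 0.64). Over the pairs r ran from -0.54 to 0.72 with a median of 0.02.
Among 9 pairs of probes of the same gene r ran from -0.16 to 0.47 with a median of 0.06, and 0 passed the adjustment. Of these, 7 include a dim probe under the filter, and only the pairs of Hdac2 and Hdac4 given above have both probes tested.

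With group differences left in, the tested genes whose levels over the 16 arrays were most like those of Hdac9 1434572_at were Scai (r = 0.86, rho = 0.88), Ccn3 (r = 0.84, rho = 0.85) and Grb10 (r = 0.84, rho = 0.85), of 11456 genes compared. Hdac2 ranked 6 (r = 0.83, rho = 0.86). These are descriptions over arrays that share groups and a spike-in level. Scai encodes an inhibitor of Srf-linked transcription, Ccn3 a secreted matricellular protein and Grb10 an adaptor of the insulin receptor.

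**Figure D5:**
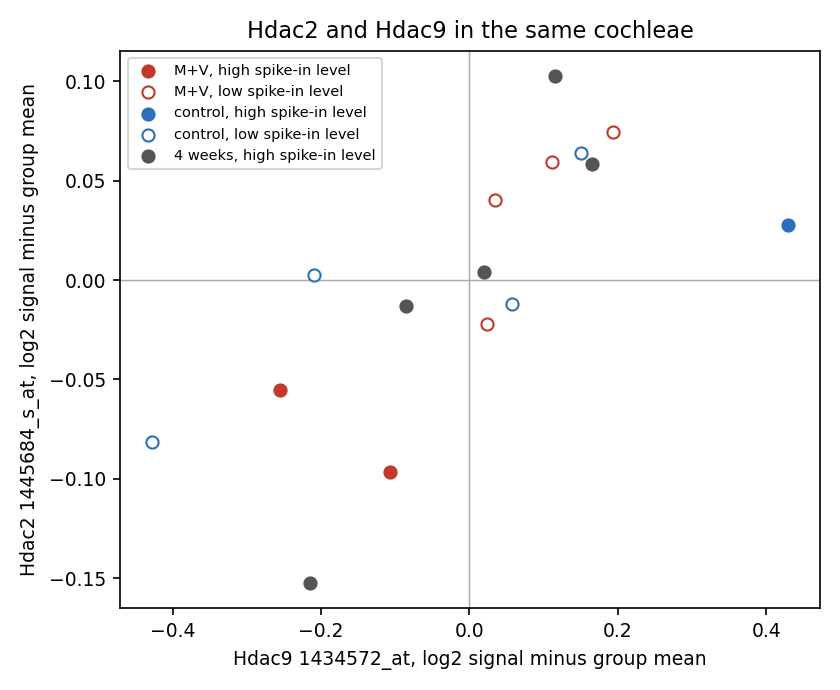
Hdac2 1445684_s_at against Hdac9 1434572_at in the same 16 cochleae, each as log2 signal minus the mean of its group; filled points are arrays of the high spike-in level. Points run from the lower left to the upper right in all 3 groups (r = 0.72), and Hdac2 spans a narrower range than Hdac9.

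The enzymes, complexes and targets around the family were counted from 9 lists of 82 genes, of which 70 had a tested probe. For M+V against control 0 of the 70 passed and 7 (10%) had an unadjusted p under 0.05. For M+V against 4 weeks 0 passed and 15 (21.4%) were under that limit, and for control against 4 weeks 2 passed and 11 (15.7%) were. The shares under the unadjusted limit are close to the 9.8%, 22.2% and 13.8% of all tested probes. Calls past the test were 0%, 5.28% and 1.38% of all tested probes in the same order. How the calls of the 70 genes differ from these shares was not tested.
Other deacetylases, Hdac11 and the sirtuins, had 7 tested genes, with 0 called in any comparison and medians of 0.08, 0.13 and 0.09 in the order just used. Sirt4, a mitochondrial sirtuin, had the largest statistic against control, at 0.34 (SE 0.14, adjusted p = 0.479, limma). Among the partners of the class I enzymes, 12 tested genes of the Sin3 complex, 9 of NuRD, 6 of CoREST and 2 of NCoR/SMRT gave 0 calls between M+V and control, with medians of 0.04, 0.01, 0.02 and 0.05. Sap30, a Sin3 subunit, differed by 0.35 there (SE 0.13, adjusted p = 0.458, limma). Its highest cochlea was M+V replicate 1, at 11.90, beside 10.85 to 11.28 in the other M+V cochleae.

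The gene of these complexes that fell was Ing2, the Sin3 subunit that reads trimethylated lysine 4 of histone H3. It had 9.39, 9.80, 9.26, 9.67 and 9.47 in control, against 9.99, 10.09, 10.05, 10.03 and 10.40 at 4 weeks, with no overlap. The change was -0.59 (SE 0.12, adjusted p = 0.0206, limma), and in M+V it was -0.39 (SE 0.12, adjusted p = 0.0583, limma). The control call was lost without 4 weeks replicate 5 (adjusted p = 0.0617), control replicate 3 (0.0578) or control replicate 5 (0.0632), and with the spike-in level as a block the change was -0.48 (adjusted p = 0.174, limma). With bone markers as a covariate it was -0.86 (adjusted p = 0.104, limma) and with neutrophil markers -0.61 (adjusted p = 0.147, limma).
For the class IIa enzymes, 16 tested partners and kinases (Mef2 factors, 14-3-3 proteins and the kinases that export these enzymes from the nucleus) gave 0 calls, with 5 above and 11 below 0 against control. Ywhag, a 14-3-3 protein, differed most, by -0.25 (SE 0.12, adjusted p = 0.509, limma).
The opposing acetyltransferases had 10 tested genes and 0 calls, with 7 above 0 against control. Ep300, the p300 coactivator, differed by 0.31 (SE 0.13, adjusted p = 0.48, limma). Of the bromodomain readers of acetylated histones, Brd3 differed by 0.21 (SE 0.10, adjusted p = 0.534, limma), and its other 3 probes were at 0.34, 0.01 and -0.03. From CoREST and NuRD, Phf21a and Mbd2 had the largest statistics, at 0.26 (adjusted p = 0.46, limma) and 0.12 (adjusted p = 0.671, limma), but the other 3 Phf21a probes were at 0.06, -0.13 and -0.04. Tbl1xr1 of the NCoR/SMRT complexes differed by 0.04.

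Genes that Hdac inhibitors raise in cultured cells are a readout of inhibitor exposure in that setting. By their main probes all 6 tested genes of this list were above 0 in M+V against control, with a median of 0.19 against 0.01 over all tested probes, and 0 passed the test or had an unadjusted p under 0.05. The list holds Hspa1b, which the study picked from these arrays, so the direction is not independent evidence. The study reports Hspa1b as higher in M+V than in control by its array cutoffs, and also by quantitative RT-PCR. The count of 0 given here is for main probes with limma, and the reason for the difference was not tested. Hspa1a, a heat shock protein, had the largest statistic, at 0.42 (SE 0.27, adjusted p = 0.618, limma). Its M+V cochleae ran from 8.86 to 10.11 and the control cochleae from 8.83 to 9.16.
Cdkn1a, the cell cycle inhibitor p21 and the best known of these genes, differed by 0.24 between M+V and control with its main probe (SE 0.16, adjusted p = 0.661, limma) and by -0.07 with its other tested probe (adjusted p = 0.944, limma). It was lower in control than at 4 weeks, with 10.45, 10.63, 10.50, 10.25 and 10.41 against 11.53, 10.88, 11.05, 10.86 and 11.59, and the groups did not overlap. The change was -0.73 (SE 0.17, adjusted p = 0.043, limma), and for M+V it was -0.50 (adjusted p = 0.0844, limma). A second probe had -0.91 for M+V (adjusted p = 0.0332, limma) and -0.84 for control (adjusted p = 0.112, limma). The control call for the main probe was lost without any of 4 weeks replicates 1, 3 and 5, any of the 5 controls or M+V replicate 6, with adjusted p-values of 0.059 to 0.121 (limma). With the spike-in level as a block the change was -0.63 (adjusted p = 0.221, limma). With neutrophil markers as a covariate it was -0.35 in control (adjusted p = 0.454, limma) and -0.01 in M+V, and with bone markers it was -1.12 in control (adjusted p = 0.14, limma) and -0.95 in M+V. The part of these cells in the change was not tested beyond these fits.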

How the data were processed

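RNA of 16 whole left cochleae was hybridised to Affymetrix GeneChip mouse genome arrays. The authors extracted signals with GCOS and MAS5 (versions not given in the sources used here) and quantile-normalized them; the deposited values are log2 signals. Sorted values were identical in all arrays. Signals under 1 were set to 1 (0.869% of values) and 64 control probes left out. In the array annotation 34958 probes have 1 symbol, 932 several and 9211 none.

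Group means of all 16 arrays entered 1 linear model (limma 3.58.1, R 4.3.3), with two-sided tests and Benjamini-Hochberg adjustment over the 21391 probes at or above the array median (percentile 50) in all arrays of 1 or more groups. This filter stands in for the present calls of the methods, which were not used here. The study's cutoffs and the methods' t-test were counted as well. The fit was tested on simulated data. Correlations of values minus group means used 100000 permutations within groups (Python 3.11.15, scipy 1.17.1), adjusted over 36 pairs of genes and 9 pairs of probes. The number of arrays limits the precision.

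All probes of the members were named; from each related list, every main probe past the threshold and the 1 with the largest statistic for M+V against control. Members and lists were chosen with earlier results of these data known. Alternatives covered normalization, filters, tests, covariates, the spike-in level, the replicate number and each array left out. Sequences came from RefSeq (GRCm38.p6).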

Additional observations from a re-analysis of the deposited data

Results flagged for a closer look

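Of 51 sets of values of 1 probe in 1 group, 7 held a cochlea whose gap to the nearest other was large for the range of the group, 4 of them with tested probes; chance alone gives about 1 in 20. M+V replicate 6 was low for Hdac4 1436758_at, at 7.82 against 8.13 for the nearest M+V cochlea, and 4 weeks replicate 4 was low for the same probe, at 7.86 against 8.11. M+V replicate 2 was low for Hdac4 1447566_at, at 4.03 against 5.51. Control replicate 1 was low for Hdac1, at 9.73 against 10.30. Control replicate 3 was high for Hdac2 1449080_at, at 10.76 against 10.60, and low for Hdac7 1420812_at, at 6.18 against 6.70. The 4 weeks replicate 2 value for Hdac9 1421306_a_at was 1.504 against 4.50.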

How the results depend on the processing

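Between M+V and control, 0 Hdac probes were called in any of the alternatives run, and 0 passed the study's cutoffs. For M+V against 4 weeks, the 1 called probe, Hdac2 1449080_at, stayed below 0 in all 34 alternatives (log2 fold changes of -0.51 to -0.35) and was called in 25. The count of called probes was 0 with no filter, with both forms of the methods' t-test, with the replicate number or the spike-in level as a block, within the high spike-in arrays, and with bone or neutrophil markers as a covariate. It was 2 with array weights and without M+V replicates 1 and 2 together, the second being Hdac4 1454693_at, and 1 to 2 with single arrays left out. With only the compared groups the adjusted p of Hdac2 was 0.05 (limma), not under the threshold. The study's cutoffs took 1 probe with no filter (Hdac9 1421306_a_at, lower) and 1 with the bone covariate (Hdac4 1454693_at, higher), in both comparisons with 4 weeks. With no filter more probes are tested; the cause of the other shifts was not tested. The related genes called ranged from 0 to 9 for M+V against 4 weeks and from 0 to 2 for control against 4 weeks. The bone and neutrophil covariates and the omission of both M+V arrays were chosen after seeing the data. Of 377 uncalled or called member values per comparison, 31, 18 and 26 changed sign (M+V over control, then M+V and control over 4 weeks), none of them called. Signals of 6 probes, Hdac8 among them, lay too low for the filter, and the intervals of the dimmest span several log2 units.

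The labels do not say whether the replicate numbers pair the cochleae. The 15 same-numbered pairs of arrays had a median correlation of 0.01 around the group means, 6 of them above 0.1. The median was -0.02 for the other 70 pairs, and the difference was not tested. With the replicate block, the count was 0 for M+V against control, 0 for M+V against 4 weeks (Hdac2 1449080_at at -0.42, adjusted p = 0.05, limma) and 0 for control against 4 weeks.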
